A study of Rattus norvegicus with 4 samples.

Results

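The receptors for acetylcholine, noradrenaline, serotonin, dopamine, histamine, adenosine, endocannabinoids, opioid peptides, neuropeptide Y and somatostatin were examined in rat hippocampal neurons cultured with or without BPA, that is bisphenol A, an industrial chemical used in plastics. Members were taken by gene symbol: 73 rows of the 22714 rows of the expression tables, which stand for 71 symbols since Adora3 and Chrm2 each had a second row. All 73 rows were listed as protein coding. The study held 4 groups of 1 library each. Ctrl_Input and Ctrl_IP came from untreated primary hippocampal neurons, and BPA_Input and BPA_IP from neurons given 1 mM BPA for 48 h from day 12 in vitro, with the end given as day 13 for the input and day 14 for the immunoprecipitated sample. All cultures had received Ara-C, which kills dividing cells, on day 7. The input libraries are RNA before pull-down, and the IP libraries are RNA fragments pulled down with an antibody against m6A, a methylated adenosine of mRNA. The labels do not say how many animals a culture held. No group was repeated, so no test of the exposure was possible: each difference is between 2 libraries, and its 95% interval covers read counting only.

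These receptors set how strongly modulatory transmitters act on hippocampal circuits. Most pass their signal through a G protein: Gs raises cyclic AMP, Gi lowers it and opens potassium channels, and Gq releases calcium from internal stores. The nicotinic acetylcholine receptors and the Htr3 serotonin receptors are ion channels built from subunits instead. In the hippocampus, axons from the septum, locus coeruleus and raphe supply acetylcholine, noradrenaline and serotonin, and the cell bodies of those axons lie outside the hippocampus. The m6A mark is known to affect how long an mRNA lasts and how well it is translated.

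Sequence of the region around the annotated start of 3 receptor genes is shown because the results below refer to them: Hrh3 had the largest difference between the inputs among receptor genes averaging 10 counts or more, Chrm3 carried the strongest m6A peak of any receptor, and Chrna7 had a listed peak close to its start. The Chrna7 peak was weak: no peak listed for the BPA library had a lower score from the authors. Each window runs from 250 bases before to 50 bases after the start, from RefSeq in the GRCr8 build, which is not the build of the deposited files, and is written 5′ to 3′ on the gene's strand. The strand of GRCr8 is the opposite of that in the files for Hrh3 and Chrm3, as for 3 of the 55 receptor rows with a window; all 10 of the genes nearest to Hrh3 differed in the same way, as did 6 of the 10 nearest to Chrm3 and 0 of the 10 nearest to Chrna7. In Hrh3 (chr3:187574210-187574509, minus strand) capitals mark a match to the core of RE1, the element bound by the neuronal repressor REST. In Chrm3 (chr17:64696677-64696976, plus strand) and Chrna7 (chr1:126249080-126249379, minus strand) capitals mark GGAC, the core of the m6A motif, within the transcribed 50 bases. These capitals do not mark the listed m6A peaks, whose sequence was not read. The Chrna7 peak begins 246 bases from the 5′ end of its gene row, and the Chrm3 peak lies outside its row.
Hrh3: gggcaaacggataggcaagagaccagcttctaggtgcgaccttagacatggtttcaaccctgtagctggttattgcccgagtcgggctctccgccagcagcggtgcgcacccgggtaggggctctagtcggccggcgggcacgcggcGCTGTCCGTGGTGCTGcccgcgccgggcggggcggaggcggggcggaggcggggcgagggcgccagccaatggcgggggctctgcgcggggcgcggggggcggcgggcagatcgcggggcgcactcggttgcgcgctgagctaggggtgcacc
Chrm3: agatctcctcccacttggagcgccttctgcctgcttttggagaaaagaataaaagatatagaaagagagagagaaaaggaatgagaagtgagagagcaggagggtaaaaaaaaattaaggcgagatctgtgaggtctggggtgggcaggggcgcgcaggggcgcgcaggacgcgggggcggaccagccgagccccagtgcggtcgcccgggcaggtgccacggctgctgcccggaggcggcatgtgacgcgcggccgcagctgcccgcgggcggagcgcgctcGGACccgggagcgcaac
Chrna7: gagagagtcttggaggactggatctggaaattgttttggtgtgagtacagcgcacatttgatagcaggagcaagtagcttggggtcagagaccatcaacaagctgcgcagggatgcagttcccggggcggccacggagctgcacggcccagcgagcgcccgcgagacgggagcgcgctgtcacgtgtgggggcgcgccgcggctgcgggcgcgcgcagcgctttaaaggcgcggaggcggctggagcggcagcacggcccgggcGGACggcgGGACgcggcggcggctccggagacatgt

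The RE1 core was searched on both strands as CAGCACC, any 2 bases, then GGACAGC, after the letters of the Hrh3 window had been seen. A match in Hrh3 was thus known beforehand, and how rare the letters are supports nothing about Hrh3. The core occurred in 9 of 27457 RefSeq promoter windows (0.0328%), and Hrh3 was the only one of the 54 receptor genes with a window that held it. Its first base lay 103 bases before the start. Rest, the gene of the factor, had 339 (Ctrl) and 296 (BPA) counts, and any part of it in the Hrh3 value was not tested. GGAC on the transcribed strand stood in the first 50 transcribed bases of 18.9% of all windows and of 14 of the 54 receptor windows (25.9%), once in Chrm3 and at 2 places in Chrna7. The median share of G and C bases was 60.2% in receptor windows and 52.3% in all windows, and the GGAC shares were not matched for it. A match is a description of letters and shows no binding or methylation. Genes without a window included Adora2a, Adora3, Adra1a, Adrb3, Chrm5, Chrna2, Chrna6, Chrnb3, Cnr1, Hrh2, Htr1a, Htr2a, Htr3a, Htr4, Oprk1 and Oprl1.

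Deposited counts summed to 9837064 (Ctrl) and 9774929 (BPA). Receptor rows took 7948 of the Ctrl counts and 8157 of the BPA counts, a CPM (count scaled to library total) of 808 and 835. Of the 71 symbols, 16 had 0 counts in both libraries, which allows up to 0.308 (Ctrl) and 0.314 (BPA) CPM. Pairs of values are given with the Ctrl input first. A mean of 10 or more counts over both inputs was reached by 36 rows, 1 per symbol, and the differences below are given for these unless a count is named as lower. Transcripts of neurons were present, with an FPKM (fragments scaled to transcript length and library depth) of 193 and 186 for Map2 and 269 and 317 for the glutamate transporter Slc17a7. Of the 5 astrocyte markers, Gfap had an FPKM of 2222 and 2138 in these cultures labelled as neurons. Slc1a3 had 713 and 658, Aqp4 682 and 646, and Gja1 562 and 499, while Aldh1l1 had 6.98 and 7.58. Of the 7 GABAergic markers, 6 averaged 10 counts or more. Gad1 had an FPKM of 50.9 and 47.6, Gad2 50.9 and 47.1, and Slc32a1 12.3 and 14.4, while the neuropeptide Npy was listed at 1.01 and 0 counts. In bulk RNA, fewer cells of a type and less RNA per cell cannot be told apart.

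**Figure D1:**
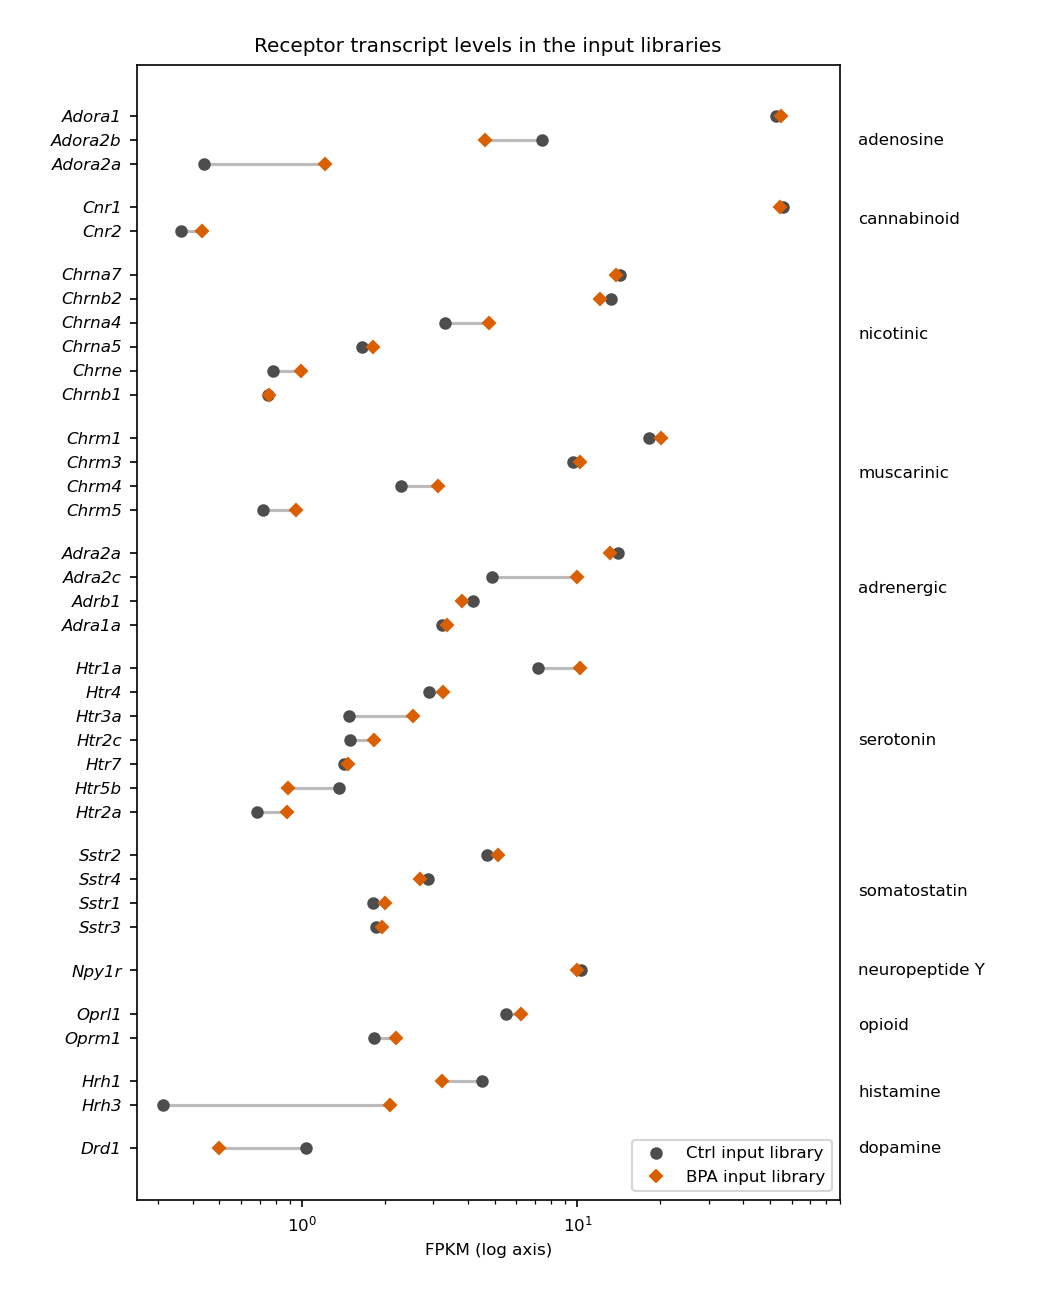
FPKM of the 36 receptor genes averaging 10 counts or more, on a log axis, grouped by family; grey circles are the Ctrl input and orange diamonds the BPA input, 1 library each. Cnr1 and Adora1 sit above 50 in both libraries and most pairs of points nearly coincide, while Hrh3, Adora2a, Drd1, Adra2c and Htr3a show the widest gaps.

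A pair of Gi-coupled receptors dominated the set. Cnr1, the presynaptic receptor through which endocannabinoids suppress transmitter release, had an FPKM of 55.6 (Ctrl) and 54.6 (BPA). Adora1, the inhibitory adenosine receptor, had 52.8 and 55.0. Together they held 59.3% (Ctrl) and 57.9% (BPA) of all receptor counts, and 41.1% and 39.4% of summed receptor FPKM. Both were nearly level between the libraries: Cnr1 had 3268 and 3209 counts (0.982-fold, 95% interval 0.935 to 1.03) and Adora1 had 1450 and 1512 (1.04-fold, 0.969 to 1.12). As the deepest counts, they have the narrowest intervals of the set.

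Behind them, 5 further genes had an FPKM of at least 10 in both libraries. Chrm1, the Gq-coupled muscarinic receptor of pyramidal cells, had an FPKM of 18.2 and 20.2. Chrna7, the nicotinic subunit that forms calcium-permeable channels by itself, had 14.3 and 13.8. Adra2a, a Gi-coupled noradrenaline receptor, had 14.0 and 13.1, the nicotinic subunit Chrnb2 had 13.2 and 12.1, and the neuropeptide Y receptor Npy1r had 10.3 and 10.004. None of these 5 had a counting interval that left out 1. Of the 73 rows, 27 reached an FPKM of 1 in each library. Levels between genes carry a limit of the gene models: 14 member rows span under 2000 bases, and the length of 13 of them is a multiple of 3, as for coding sequence without untranslated ends. Chrm1, Chrm3, Adra2c, Adrb1, Htr1a and Hrh1 are among these.

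Across the 36 genes, 24 had more counts in the BPA library and 12 fewer, so 66.7% were higher, beside 50.4% of all genes. Among the 23 averaging 50 counts or more, 13 were higher and 10 lower. The median log2 ratio was 0.08 (interquartile range -0.04 to 0.36), beside 0.002 over all 13006 genes of that depth. Log2 ratios were taken as (BPA + 1)/(Ctrl + 1). A difference of 2-fold or more was seen for 3 of the 36 (8.33%), beside 2.02% of all genes; receptor genes are shallower than most, with a median mean count of 64.5 against 275. At 10 to 50 counts it was 2 of 13 receptor genes (15.4%) beside 10.2% of all genes, and at 50 counts or more 1 of 23 (4.35%) beside 0.475%. At 1.5-fold it was 8 of 36 (22.2%) beside 6.26%. The counting interval left out 1 for 7 of 36 receptor genes (19.4%) and for 18.3% of all genes. These shares were close but were not matched for depth, on which the width of the interval depends.

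**Figure D2:**
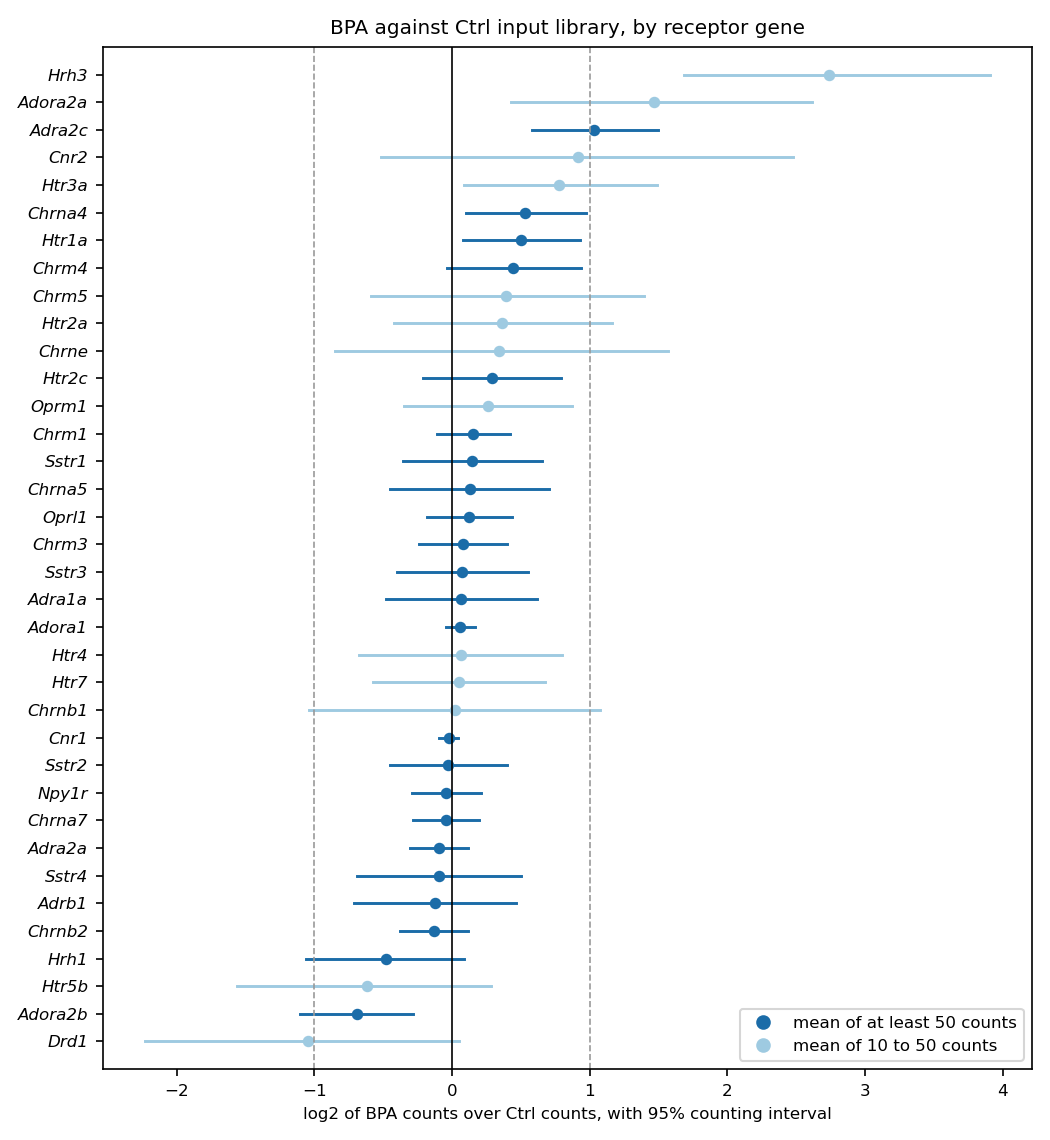
Ratio of BPA to Ctrl counts for each of the 36 receptor genes on a log2 scale, without a pseudocount, with the 95% interval from read counting; dark points have a mean of at least 50 counts, pale points 10 to 50, and dashed lines mark 2-fold. The intervals of Hrh3, Adora2a, Adra2c, Htr3a, Chrna4, Htr1a and Adora2b leave out 0, and that of Hrh3 lies wholly above 2-fold.

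Histamine receptors held the largest difference. Hrh3, the Gi-coupled receptor that restrains release of histamine and other transmitters, had 8.89 (Ctrl) and 59.3 (BPA) counts, 6.67-fold higher (95% interval 3.21 to 15.0; log2 ratio 2.61). Its FPKM was 0.312 and 2.08, so it went from far under 1 to the level of Sstr1 and Sstr3. On the log2(FPKM + 1) scale, which damps low genes, the difference was 1.23. Hrh3 and Hrh2 were the only members whose counts were not within 0.01 of whole reads after division by the step of the library, so part of the Hrh3 value is an estimate. In the files' coordinates Hrh3 lies on chromosome 3 from 181639287 to 181644372. The nearest rows on either side with a mean of at least 10 counts did not share the difference: Osbpl2, 14302 bases before it, had 720 and 709 counts, and Mtg2, 10204 bases after it, had 167 and 213. Hrh1, the Gq-coupled receptor, went the other way with 65.6 and 47.0 counts (0.717-fold, 0.480 to 1.06). Hrh2 had 5.98 and 4.96 counts and Hrh4 had 0 in both.

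Among adenosine receptors, the rarer members differed in opposite directions while Adora1 stayed level. Adora2a, a Gs-coupled receptor best known from the striatum, had 11.1 (Ctrl) and 30.7 (BPA) counts (2.76-fold, 1.35 to 6.11; log2 ratio 1.39). Adora2b, the low-affinity Gs-coupled receptor, had 135 and 83.8 counts (0.620-fold, 0.465 to 0.822), and its FPKM was 7.47 and 4.62. It had the lowest ratio among the 23 receptor genes averaging 50 counts or more. Both Adora3 rows had 0 counts. On the log2(FPKM + 1) scale Adora2a was at 0.62 and Adora2b at -0.59.

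Beside the lower Adora2b value, 4 of 5 astrocyte markers (Gfap, Aqp4, Slc1a3, Gja1, but not Aldh1l1) were also lower in the BPA library, and their summed level was 14751 (Ctrl) and 13993 (BPA) CPM. General neuron markers were higher for 4 of 5 (2718 and 2856 CPM in sum), all but Map2. All 3 excitatory markers were higher, with 1116 and 1312 CPM in sum, and 3 of 5 microglia markers were higher (47.2 and 47.8 CPM). Of GABAergic markers with at least 10 counts, 2 of 6 were higher (333 and 318 CPM for the list of 7), and Pvalb among the lower had 36.3 and 12.3 counts. Vascular and fibroblast markers summed to 344 and 391 CPM, with Cldn5 at 0 and Col1a2 at 245 and 527 counts, and oligodendrocyte markers to 325 and 329. The part of these shifts in any receptor value was not tested.

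Adrenergic receptors differed in 1 member. Adra2c, a Gi-coupled noradrenaline receptor that also acts as an autoreceptor, had 62.6 (Ctrl) and 128 (BPA) counts (2.04-fold, 1.49 to 2.81), and an FPKM of 4.88 and 9.96. Its log2 ratio of 1.02 was the only one past 2-fold among receptor genes averaging 50 counts or more; it was 0.90 on the log2(FPKM + 1) scale. Adra2c lies on chromosome 14 from 81422367 to 81423743 in the files, and its nearest rows with at least 10 counts were level but distant. LOC686087, 90189 bases before it, had only 16.2 and 16.4 counts (1.01-fold). Lrpap1, 176258 bases after Adra2c, had 1923 and 1841 counts (0.957-fold). Adra2a, the relative of Adra2c, had 403 and 377 counts (0.937-fold, 0.811 to 1.08). The Gq-coupled Adra1a had 58.5 and 61.3 counts and the Gs-coupled Adrb1 had 54.5 and 50.1. Adra1d had 7.07 and 8.18 counts, Adrb3 1.01 and 0, and Adra2b 0 in both.

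**Figure D3:**
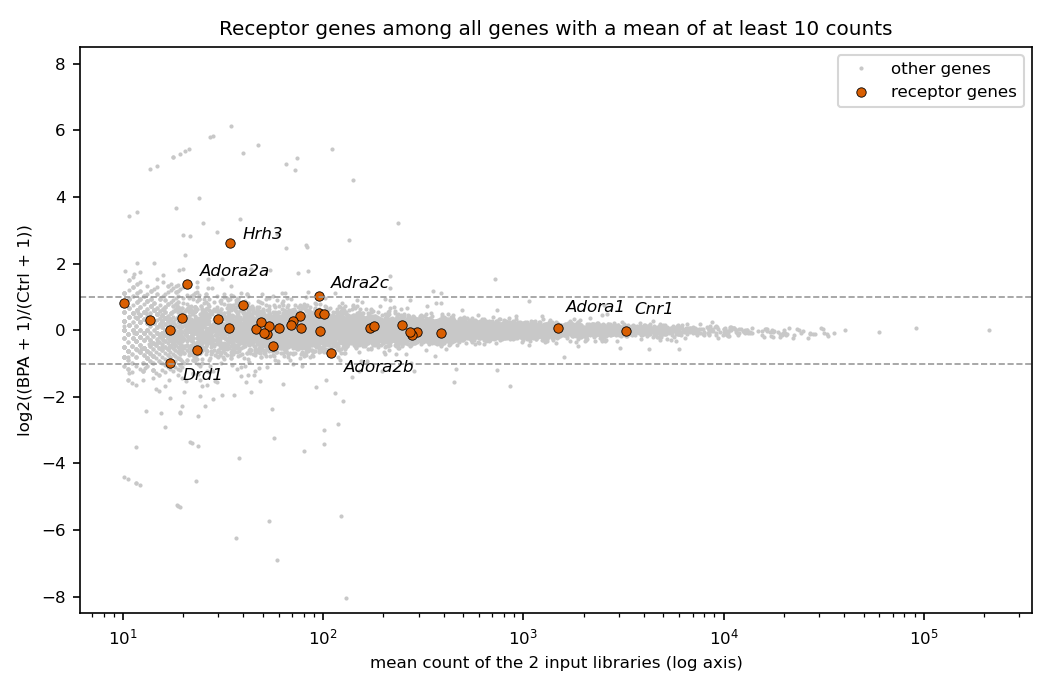
Log2 ratio of the inputs against mean count on a log axis for all 13006 genes averaging 10 counts or more (grey) and the 36 receptor genes (orange); dashed lines mark 2-fold. The spread of grey points narrows with depth, Hrh3 and Adora2a sit among shallow genes, and Adra2c at a mean of 95.2 counts lies at the edge of its neighbours.

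Serotonin receptors as a family had more counts in the BPA library. The 14 symbols summed to 331 (Ctrl) and 411 (BPA) counts (1.24-fold, 1.07 to 1.44), and without Htr1a the rest was at 1.18-fold (0.993 to 1.41). Htr1a, the Gi-coupled receptor that inhibits hippocampal pyramidal cells, was the most abundant per length, with an FPKM of 7.22 and 10.2 and 83.8 and 119 counts (1.42-fold, 1.06 to 1.90). Htr3a, the subunit of the serotonin-gated channel found in interneurons, had 29.3 and 50.1 counts (1.71-fold, 1.06 to 2.81), whereas its partner Htr3b had 0 and 1.02. The Gq-coupled Htr2c had 63.6 and 77.7 counts and Htr2a had 26.2 and 33.7. The Gs-coupled Htr4 had 33.3 and 34.8 counts and Htr7 had 45.4 and 47.0. Htr5b was the one serotonin receptor with at least 10 counts that was lower, at 28.3 and 18.4 counts (0.651-fold, 0.339 to 1.22). Under that depth, Htr1b had 4.04 and 12.3 counts (3.04-fold, 0.921 to 12.9), Htr6 had 11.1 and 7.16, Htr5a had 6.06 and 6.13, and Htr1f had 0 and 4.09. Htr1d and Htr2b had 0 in both.

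All 4 measured muscarinic receptors had more counts in the BPA library, each with a counting interval that held 1. The family summed to 483 and 547 counts (1.13-fold, 1.00 to 1.28), with the lower bound at 1 within rounding. Chrm1 had 234 and 261 counts (1.11-fold, 0.928 to 1.34) and Chrm3, which is also Gq-coupled, had 167 and 176 (1.06-fold, 0.848 to 1.32). The Gi-coupled Chrm4 had 64.6 and 87.9 (1.36-fold, 0.973 to 1.91). Chrm4 shares its listed locus with Mdk on the opposite strand (424 and 388 counts), and since the labels do not state whether reads were counted by strand, the value of Chrm4 is uncertain. Chrm5 had 17.2 and 22.5 counts, and both Chrm2 rows, the Gi-coupled receptor of cholinergic terminals and some interneurons, had 0.

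Nicotinic subunits summed to 765 (Ctrl) and 767 (BPA) counts (1.00-fold, 0.905 to 1.11), with differences in both directions inside the family. Chrna4 and Chrnb2 assemble into the main high-affinity nicotine receptor of the brain. Chrna4 had 77.7 and 112 counts (1.45-fold, 1.07 to 1.96), while Chrnb2 had 292 and 266 (0.911-fold, 0.768 to 1.08) and Chrna7 had 299 and 290 (0.972-fold, 0.823 to 1.15). Chrna5, an accessory subunit, had 51.5 and 56.2 counts. It lies in a row with Chrna3 and Chrnb4 on chromosome 8 from 58143974 to 58211019, yet Chrna3 had 2.02 and 5.11 counts and Chrnb4 6.06 and 3.07, so Chrna5 was the only member of that gene cluster with at least 10 counts. Of the muscle subunits, Chrnb1 had 17.2 and 17.4 counts, Chrne 12.1 and 15.3 and Chrna1 5.05 and 1.02, while Chrnd and Chrng had 0. Chrna2 and Chrna9 had at most 2.02 counts, and Chrna6, Chrnb3 and Chrna10 had 0.

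Dopamine receptors were the rarest family. Drd1, Gs-coupled, had 23.2 (Ctrl) and 11.2 (BPA) counts (0.484-fold, 0.213 to 1.03). With the pseudocount its log2 ratio was -0.98, just short of 2-fold. Drd2 had 6.06 and 3.07 counts, Drd3 1.01 and 0, and Drd4 and Drd5 had 0. The family sum was 30.3 and 14.3 counts (0.473-fold, 0.232 to 0.919). The upper bound of that interval is 3.97 times the lower one.

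Peptide receptors were mostly level. Oprl1, the Gi-coupled nociceptin receptor, was the most abundant opioid receptor with 172 and 187 counts (1.09-fold, 0.880 to 1.35), and Oprm1, the target of morphine, had 44.4 and 53.2. Oprm1 shares its listed locus with Ipcef1 on the other strand, which had 20.2 and 16.4 counts. Oprd1 had 4.04 and 10.2 counts (2.53-fold, 0.730 to 11.1) and Oprk1 2.02 and 4.09. Npy1r had 276 and 268 counts (0.972-fold, 0.817 to 1.16), while Npy5r, which neighbours it on chromosome 16, and Npy4r had 0, and Npy2r had 3.03 and 5.11. Somatostatin receptors summed to 292 and 297 counts (1.02-fold, 0.864 to 1.20). Of these Sstr2 had 97.9 and 96.1 counts, Sstr3 75.7 and 79.7, Sstr1 65.6 and 72.6, Sstr4 52.5 and 49.1, and Sstr5 had 0. Cnr2, the cannabinoid receptor of immune cells, had 7.07 and 13.3 counts (1.88-fold, 0.697 to 5.57) and an FPKM of 0.361 and 0.431. It is 1 of 3 members, with Sstr2 and Htr4, whose FPKM ratio and count ratio differed by over 5%.

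Grouped by the signal they send, Gs-coupled receptors had fewer counts in the BPA library while the sums of the other classes with several members were level or higher. This grouping was made after the values were known. The 11 Gs-coupled symbols summed to 330 and 279 counts (0.845-fold, 0.717 to 0.996), and without Adora2b to 195 and 195 (1.00-fold, 0.816 to 1.23). The 32 Gi-coupled symbols summed to 6157 and 6355 (1.03-fold, 0.996 to 1.07) and, without Cnr1, to 2889 and 3147 (1.09-fold, 1.03 to 1.15). Gq-coupled receptors were at 1.08-fold (0.963 to 1.20) and ion channel subunits at 1.03-fold (0.932 to 1.14).

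Genes that make, clear or transmit these signals were listed in 4 groups. None of their 9, 14, 32 and 31 genes with at least 10 counts was past 2-fold, beside 2.02% of all genes. Enzymes and transporters of the transmitters had 9 of 22 listed genes with at least 10 counts, 3 higher and 6 lower, with a median log2 ratio of -0.15. Maob, which breaks down monoamines and is abundant in astrocytes, had 2047 and 1693 counts (0.827-fold, 0.774 to 0.883), and Maoa was at 0.890-fold. The uptake transporters for noradrenaline and dopamine, Slc6a2 and Slc6a3, had 0 counts. Ligand genes had a median of -0.02 with 6 higher and 8 lower: Pnoc, the nociceptin precursor, had 48.5 and 64.4 counts, Penk 133 and 113, and Sst 108 and 82.8. G proteins and effectors had a median of 0.006 with 17 higher and 15 lower. Kcnj9, a subunit of the potassium channel that Gi-coupled receptors open, had 95.9 and 138 counts (1.44-fold, 1.10 to 1.89), and Gna13 was at 0.813-fold (0.711 to 0.930). Kinases, arrestins, RGS proteins and partners had a median of 0.03 with 19 higher and 12 lower, among them Lynx1, which binds nicotinic receptors, at 1.20-fold (1.09 to 1.32) and the receptor kinase Adrbk1 at 1.14-fold (1.04 to 1.25).

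The deposited pathway annotation for neuroactive ligand-receptor interaction covered 285 rows, 71 of them among the receptors above; the rows it left out were Htr3a and Htr3b. Of its other genes, 88 had at least 10 counts, with 41 higher, 47 lower and a median of -0.009. In that group 3 genes were past 2-fold (3.41%), beside 2.02% of all genes. All 3 averaged 10 to 50 counts, a depth at which 10.2% of all genes were past 2-fold. Crhr1, the receptor for corticotropin-releasing hormone, had 7.90 and 30.4 counts (3.84-fold, 1.70 to 9.59). Ntsr1, a neurotensin receptor, had 16.2 and 35.8 (2.22-fold, 1.19 to 4.29), and P2ry6, a nucleotide receptor, had 40.4 and 12.3 (0.304-fold, 0.145 to 0.591).

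Listed m6A peaks were sparse in receptor mRNA. The authors' lists held 4 receptor peaks of 8192 in the Ctrl library, in Chrm3, Chrna7, Chrna4 and Sstr3, and 3 of 8183 in the BPA library, in Chrm3, Chrna7 and Sstr3. Among receptor rows at an FPKM of 1 or more in each input, 4 of 27 (14.8%) had a peak in the Ctrl list, beside 30.5% of all such genes, and 3 of 27 (11.1%) in the BPA list, beside 30.9%. At an FPKM from 1 to 20, 4 of 24 (16.7%) had a peak in either list, beside 32.8% of all genes there. Cnr1 and Adora1, the most abundant receptors, had none, nor did Hrh3, Adora2a, Adra2c or Adora2b.

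Only the Chrm3 peak was above the median of its list in fold enrichment and in score. It had the same edges in both lists, 310 bases on chromosome 17 from 66216902 to 66217211 in the files, assigned to transcript NM_012527. Fold enrichment in the IP, as the authors list it, was 10.5 (Ctrl) and 7.76 (BPA), a ratio of 0.742, and the score (minus 10 times log10 of the p-value, per the header) was 218 and 53.6. Its fold enrichment was above that of 84.1% of Ctrl peaks and 65.9% of BPA peaks, and its score above that of 79.5% and 55.7%. The listed FDR was 100% for this peak, as in every row of the lists. The Chrm3 row of the input tables spans 1770 bases of the minus strand, from 65755434 to 65757203, and the peak lies 459698 bases beyond the 5′ end of that row by the strand in the files. The row therefore does not include the stretch of RNA with the peak, and whether the peak is in an exon could not be read from the files.

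The other peaks had low scores, above at most 25.0% of their list, and all had a p above 0.05 by score, as did 2503 of the 8192 Ctrl peaks and 2349 of the 8183 BPA peaks. Sstr3 had a peak of 934 bases (chromosome 7, 119750729 to 119751662) in the Ctrl list and one of 711 bases with the same end in the BPA list, with fold enrichments of 5.06 and 3.74 and scores of 5.85 and 10.9. These scores stand for p-values of 0.260 and 0.0807 by the authors' header. The Ctrl peak begins 1531 bases inside the 3′ end of the 7195-base gene. Chrna7 had the same 140-base peak in both lists (chromosome 1, 125157785 to 125157924), 246 bases from the 5′ end of the gene, with fold enrichments of 3.05 and 2.65 and scores of 3.36 and 3.02. No peak of the BPA list scored lower. The Chrna4 peak (chromosome 3, 180246955 to 180247674) was in the Ctrl list alone, with a fold enrichment of 3.28 and a score of 4.08, a p of 0.391. Chrna4 had more input counts in the BPA library, as given above. In sum, 3 of the 4 Ctrl peaks and all 3 BPA peaks overlapped the other list, where 73.3% and 73.4% of all peaks did.

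**Figure D4:**
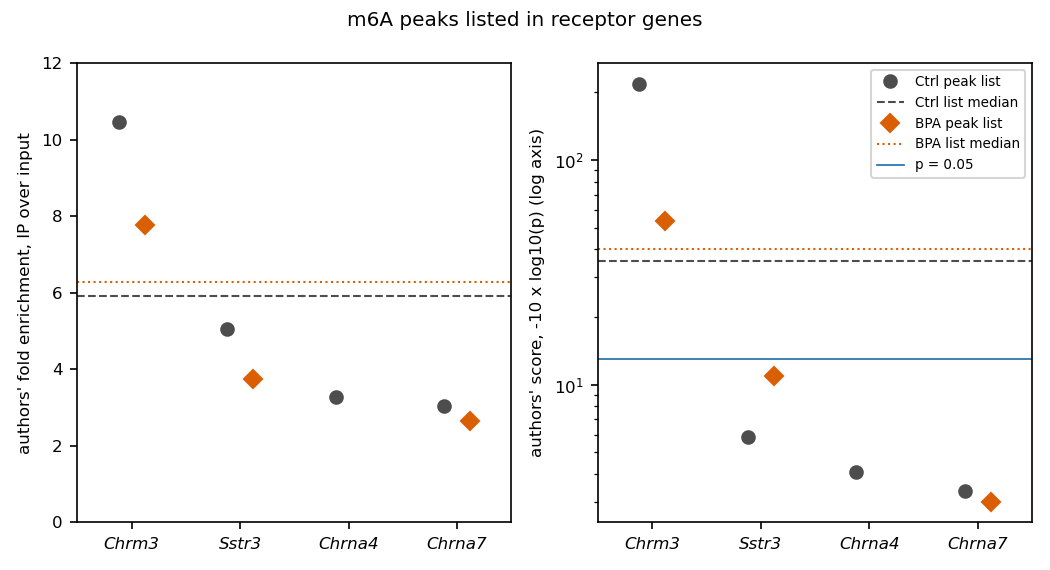
The authors' fold enrichment (left) and score (right, log axis) of each listed receptor peak, 1 point per peak, with circles for the Ctrl list and diamonds for the BPA list; dashed and dotted lines are the medians of the whole lists (fold enrichment 5.92 and 6.28, score 35.6 and 40.0), and the blue line marks a p of 0.05. Chrm3 alone lies above the medians. In the score panel all other points lie under the blue line, that is at a p above 0.05.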

How the data were processed

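Input and m6A immunoprecipitated RNA was sequenced from 4 libraries, grouped by sample title. Tools named without a role, per the submitters' processing notes, were HISAT2 2.0.4, STAR and cutadapt 1.9.3. Quantifier and genome build were not stated in labels or headers. The library kit was directional, per the labels' protocols. Per the file headers, each gene of the deposited inputs has a count and an FPKM. The deposited counts were treated as estimated counts, since some are not whole reads; low counts were multiples of 1.01 (Ctrl) and 1.02 (BPA), so deposited counts are reads times a step. For intervals, counts were divided by that step and rounded to whole reads (9744878 and 9562077 in all). The deposited peak lists give, per the file headers, a score, a fold enrichment ratio and an FDR in percent, which was 100 in every row; scores and ratios are the authors'. Starts were printed 1 higher than deposited (1-based). Some overlapping genes have 1 shared locus in the files.

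Ratios have exact (Clopper-Pearson) 95% binomial intervals, which cover counting error only; log2 ratios used a pseudocount of 1 and a mean of at least 10 counts. A count of 0 allows 3 reads. No test was run, with 1 library per group. Python 3.11.15, numpy 2.4.6, pandas 2.3.3, scipy 1.17.1 and matplotlib 3.10.9 were used. The 2-fold rule and intervals were run on simulated counts that held counting error only, without variation between cultures. Changes put into the simulation were larger than 2-fold and in genes of at least 50 reads. It thus says nothing about smaller changes or changes in shallower genes. Members and lists were chosen with earlier results of these data known. Named genes were the 3 highest FPKM values of each family, genes past 2-fold, the 6 highest and 6 lowest log2 ratios at 50 counts or more, each gene with a peak, and up to 4 genes of each further list, with the remaining members given as counts. Alternatives were other pseudocounts, filters, scalings, folds, score minimums and overlaps. Values of some single genes are not reported here.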

Additional observations from a re-analysis of the deposited data

How the results depend on the processing

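The median log2 ratio of the receptor genes lay between 0.07 and 0.08 under all alternatives run. The count of genes past 2-fold was 3 of 36 as reported, beside 2.02% of all genes. It was also 3 with counts divided by the library total, centring, size factors or without shared loci. It was 4 with a pseudocount of 0.1, 2 with one of 5, 13 with no filter and 1 on the FPKM + 1 scale. For these alternatives the share over all genes is not at hand, so the counts cannot be set beside it. The count with no filter is not out of the 36. It takes in genes of a few reads, such as Chrna2 at 2.02 and 0 counts. With a mean of at least 50 it was 1 of 23, beside 0.475% of all genes, and at 1.5-fold 8 of 36, beside 6.26%. Without the member with most counts, the log2 ratio of the family sum went from 0.03 to -0.35 for adenosine, from -0.02 to 0.91 for cannabinoid, from 0.09 to 0.41 for adrenergic, from -0.03 to 0.76 for neuropeptide Y and from 0.47 to 2.11 for histamine receptors; fewer genes then make up the sum. With peaks of a score of at least 13, 1 gene was left in each list, and its peak overlapped (of all peaks, 2503 of 8192 for Ctrl and 2349 of 8183 for BPA had a p above 0.05, close to that score); at a score of at least 100, 1 was left for Ctrl and 0 for BPA. No paired analysis was possible because each group holds 1 library. Of the single genes, 1 of 216 alternative values left its counting interval (Hrh3 on the FPKM + 1 scale, 1.23), and 1 changed sign (Sstr2 on the same scale, from -0.03 to 0.11). At 10 to 50 counts, depth limits what can be seen: the interval of Drd1 spans 0.213 to 1.03.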
